A study of Mus musculus with 19 samples.

Results

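Ly6c1, Ly6c2, Ly6a and Ly6e, genes of the Ly6 family of small cell surface proteins, were picked by their gene symbols, 4 of the 25639 genes in each deposited expression table. They were followed in 19 RNA-seq libraries made from mouse T cells, CD8 or CD4, that had been flow-sorted out of liver tumours at day 30 after colorectal cancer cells (Venus-AKTPM/LOH) had been injected into the spleen. The Vav1CreTet2KO mice gave 3 CD8 and 3 CD4 libraries, and in them Cre under Vav1, a gene active across blood cells, removes Tet2, a DNA demethylating enzyme often mutated in clonal hematopoiesis. The Cd4CreTet2KO mice gave 4 CD8 and 3 CD4 libraries, and in them Cre under Cd4 acts in the T cell lineage, CD8 cells included, so that the other blood cells keep Tet2. The Tet2fl/fl mice, floxed controls whose labels name no Cre, gave 3 CD8 and 3 CD4 libraries. Every mouse bore the same tumour line and carried Tet2fl/fl or its Cre-deleted form. The age and sex of the mice are not given in the labels. Replicates were separate mice by their labels.

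Ly6 proteins are short, rich in cysteine and held at the outside of the plasma membrane by a lipid (GPI) anchor. Ly6c1 and Ly6c2 encode the near-identical proteins that antibodies read together as Ly6C, a marker of memory CD8 T cells, of inflammatory monocytes and of plasmacytoid dendritic cells. Ly6a encodes Sca-1, the stem cell antigen of blood progenitors, which activated T cells also carry, and Ly6e encodes a thymocyte antigen that is also known as a restriction factor for some viruses. Transcription of these genes is known to be raised by interferons. In tumour immunology Ly6C is mostly used to split CD8 T cells by memory state and myeloid cells into monocytes and granulocytes.

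All 4 genes lie in 1 cluster on chromosome 15, with coordinates given here as in the deposited tables. The submitters' processing notes name GRCm38 and mm10, but the table starts of these genes differ from the GRCm38 annotation by 128151 bases. Ly6e (ENSMUSG00000022587) spans 74826900 to 74831752 on the plus strand. On the minus strand follow Ly6a (ENSMUSG00000075602) at 74866726 to 74869880, Ly6c1 (ENSMUSG00000079018) at 74915867 to 74920679 and Ly6c2 (ENSMUSG00000022584) at 74980007 to 74983819. In the GENCODE GRCm38 transcripts the coding regions of Ly6c1 and Ly6c2 were identical at 384 of 393 aligned bases (97.7%). Each shared about 82% with Ly6a (81.8% for Ly6c1 and 81.6% for Ly6c2) and about 50% with Ly6e (49.7% for Ly6c1 and 49.9% for Ly6c2). Of all 150-base windows of their transcripts, the length of 1 read, 39 were the same in Ly6c1 and Ly6c2, out of 1706 in Ly6c1 and 2737 in Ly6c2. No such window of either was shared with Ly6a or Ly6e. No source used here says how reads that match both Ly6c genes were counted, so the split between Ly6c1 and Ly6c2 is uncertain where only shared stretches are read.

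A stretch that separates the Ly6c genes is the first 150 coding bases, shown because the values below rest on telling them apart. These are coding bases 1 to 150 on the coding strand, read from the GENCODE GRCm38 transcripts, with the 6 bases that differ in capitals.
Ly6c1: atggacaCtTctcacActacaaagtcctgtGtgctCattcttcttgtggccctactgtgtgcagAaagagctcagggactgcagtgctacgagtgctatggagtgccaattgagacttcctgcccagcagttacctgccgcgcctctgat
Ly6c2: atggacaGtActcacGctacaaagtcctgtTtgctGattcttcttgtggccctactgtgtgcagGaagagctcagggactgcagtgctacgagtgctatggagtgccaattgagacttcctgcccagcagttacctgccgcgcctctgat

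The genes differ more in front of their start sites than within their coding regions. The RefSeq promoter windows of 300 bases across the start site (GRCm38.p6) lie at chr15:75048788-75049087 for Ly6c1 and at chr15:75111922-75112221 for Ly6c2, both on the minus strand. They were identical at 208 of 282 aligned positions (73.8%). They are printed because Ly6c2 was high in CD8 cells in which Ly6c1 was near 0, with capitals marking bases that differ or are inserted within the overlap.
Ly6c1: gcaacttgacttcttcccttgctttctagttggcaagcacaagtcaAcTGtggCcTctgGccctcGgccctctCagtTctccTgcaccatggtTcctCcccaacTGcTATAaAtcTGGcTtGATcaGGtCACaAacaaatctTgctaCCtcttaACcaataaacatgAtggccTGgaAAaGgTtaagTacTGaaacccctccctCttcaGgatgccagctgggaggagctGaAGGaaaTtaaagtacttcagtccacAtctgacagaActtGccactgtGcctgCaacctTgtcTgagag
Ly6c2: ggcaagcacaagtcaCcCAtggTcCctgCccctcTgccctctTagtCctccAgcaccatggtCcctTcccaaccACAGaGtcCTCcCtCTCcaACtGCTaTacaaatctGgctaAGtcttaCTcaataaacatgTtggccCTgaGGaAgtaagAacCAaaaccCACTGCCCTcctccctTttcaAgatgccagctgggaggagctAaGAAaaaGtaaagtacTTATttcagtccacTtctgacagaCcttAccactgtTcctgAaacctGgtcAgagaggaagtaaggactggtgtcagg
Neither window held GAAA followed, after any 2 bases, by a second GAAA, the core of the interferon-stimulated response element, which is in 3.44% of the 32851 RefSeq windows of this length. Both strands were searched, and a missing match says only that these letters are not in this window.

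The libraries carried their labels' T cell genes, with Cd8a and Cd3e lower in every CD8 knockout library than in every CD8 control library. The summed level of Cd8a and Cd8b1 was 231 to 428 RPKM (read number corrected for gene length and library depth) in CD8 libraries and 0 to 8.01 RPKM in CD4 libraries. Cd8a was 103 to 169 RPKM in CD8 Vav1CreTet2KO and 99.9 to 119 in Cd4CreTet2KO libraries, against 179 to 230 in Tet2fl/fl libraries. Cd3e was 148 to 199.6 RPKM in CD8 Vav1CreTet2KO and 131 to 180 in Cd4CreTet2KO libraries, against 202 to 298 in Tet2fl/fl libraries, and the part of either in the Ly6 differences was not tested. Cd4 was 39.5 to 122.4 RPKM in CD4 libraries and at most 7.68 RPKM in CD8 libraries. Reads on genes numbered 8189300 to 20327809 per CD8 library, as recovered from RPKM, and 707866 to 17575534 per CD4 library. The shallowest library was CD4 Vav1CreTet2KO replicate 1. In CD8 Vav1CreTet2KO replicate 1, 50.6% of gene values of 1 to 20 recovered reads were odd numbers. The odd share was 13.1% to 25.3% in the other CD8 libraries and 15.2% to 30.7% in the CD4 libraries, so this library stood apart. The CD8 Vav1CreTet2KO calls of named genes are also given without it. Medians and counts of lists, shares of all genes and correlations are not. Tet2 itself, summed over the whole gene and so over exons outside a floxed part too, was 2.93 to 6.28 RPKM in CD8 Vav1CreTet2KO, 3.01 to 7.57 in CD8 Cd4CreTet2KO and 6.57 to 8.06 in CD8 Tet2fl/fl libraries. In CD4 cells it was 2.77 to 5.65 RPKM in Vav1CreTet2KO, 4.53 to 7.28 in Cd4CreTet2KO and 3.87 to 7.02 in Tet2fl/fl libraries, so a gene total is no check of the deletion.

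Among the 4 members Ly6c2 had the widest difference in CD8 tumour T cells, where it rose in Vav1CreTet2KO mice. It measured 110.4, 39.1 and 74.5 RPKM in Vav1CreTet2KO libraries, against 10.1, 7.66 and 17.7 RPKM in Tet2fl/fl libraries. Every Vav1CreTet2KO library lay above every control. The group means were 74.7 ± 35.7 RPKM in Vav1CreTet2KO and 11.8 ± 5.25 RPKM in Tet2fl/fl (SD, n = 3 each). The difference was 2.52 on the log2(RPKM + 1) scale (SE 0.44, 95% interval 1.57 to 3.47, adjusted p = 0.0160 by limma over 10224 genes). Of the 3 members that passed the filter of 1 RPKM in 3 CD8 libraries, 1 rose and 0 fell. Of all tested genes 1.46% passed, 0.45% higher and 1.01% lower. In these sorted bulk samples, more cells with Ly6c2 and more Ly6c2 RNA per cell cannot be told apart.

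Ly6a differed in the same direction without passing the test. It measured 31.9, 18.9 and 6.66 RPKM in Vav1CreTet2KO libraries, against 2.74, 3.73 and 3.12 RPKM in Tet2fl/fl libraries. Every Vav1CreTet2KO library again lay above every control, and replicate 3 lay nearest to them. Means were 19.2 ± 12.6 RPKM in Vav1CreTet2KO and 3.20 ± 0.497 RPKM in Tet2fl/fl (SD, n = 3 each), a log2 difference of 2.04 (SE 0.48, 95% interval 1.00 to 3.07, limma adjusted p = 0.0577). Both Ly6c2 and Ly6a, 2 of 4 members, were thus higher in all Vav1CreTet2KO than in all control libraries, as were 6.92% of tested genes. The median log2 difference of the 3 tested members was 2.04, against a median of -0.11 over all tested genes.

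Ly6e was the most even of the abundant members in CD8 cells. It measured 94.5, 109 and 81.4 RPKM in Vav1CreTet2KO libraries, against 83.1, 85.7 and 81.9 RPKM in Tet2fl/fl libraries. The groups overlapped, with a log2 difference of 0.17 (SE 0.25, 95% interval -0.38 to 0.72, limma adjusted p = 0.752). Ly6c1 was near 0 in both groups, with 6, 0 and 1 recovered reads in Vav1CreTet2KO libraries and 0, 0 and 3 in Tet2fl/fl libraries, and it did not pass the filter.

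The Ly6c2 call depended on single libraries and on the filter. It held in 15 of 19 alternatives, among them 7 of the 10 fits with a library left out. Its log2 difference was 2.18 (limma adjusted p = 0.0540) without Vav1CreTet2KO replicate 1. Leaving out Tet2fl/fl replicate 1 gave an adjusted p of 0.104, leaving out replicate 2 one of 0.0772, and testing with no filter on low genes one of 0.0822. Ly6a had a log2 difference of 1.56 (adjusted p = 0.132) without Vav1CreTet2KO replicate 1. It passed in 6 of 19 alternatives, with adjusted p from 0.000135 to 0.236 over all of them. Those 6 were size factors (adjusted p = 0.0351), edgeR (0.0438) and DESeq2 (0.000135) on the recovered reads, the replicate number as a block (0.0453), and the fits without Vav1CreTet2KO replicate 3 (0.0289) or Cd4CreTet2KO replicate 1 (0.0478).

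**Figure D1:**
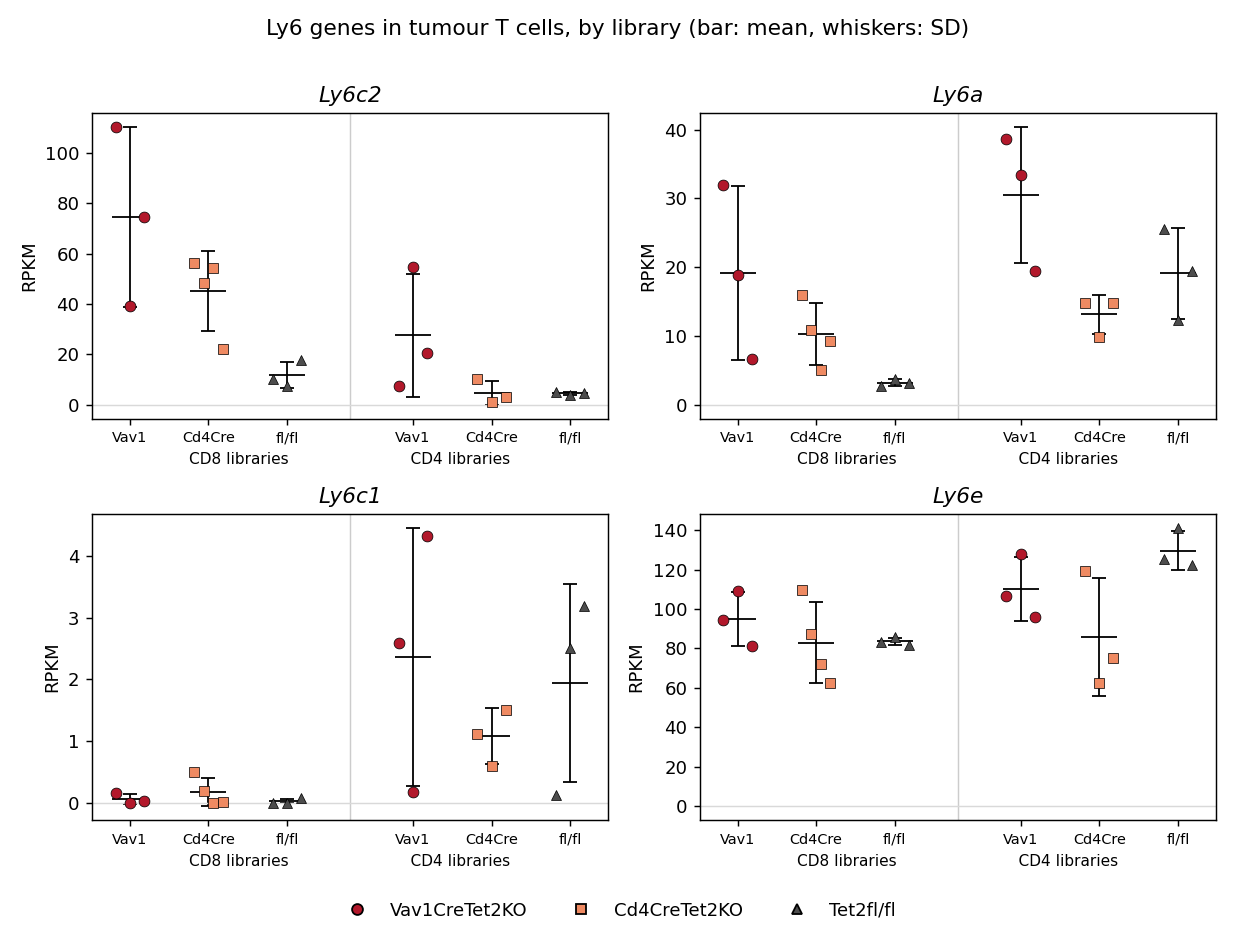
RPKM of Ly6c2, Ly6a, Ly6c1 and Ly6e (linear axes) in each library, with Vav1CreTet2KO, Cd4CreTet2KO and Tet2fl/fl libraries from left to right for CD8 and then CD4 cells, points for libraries, horizontal bars for means and whiskers for SD. In CD8 cells the knockout libraries of Ly6c2 (22.1 to 110.4 RPKM) and Ly6a (5.07 to 31.9 RPKM) all sit above the controls, while Ly6e overlaps.

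Cd4CreTet2KO mice, which lack Tet2 in T cells, had mean CD8 levels of Ly6c2 and Ly6a between those of Vav1CreTet2KO and control mice. Ly6c2 measured 56.2, 48.4, 54.3 and 22.1 RPKM in Cd4CreTet2KO libraries, against 10.1, 7.66 and 17.7 RPKM in Tet2fl/fl libraries. No library of the groups overlapped, and replicate 4 was the lowest of the knockouts. Means were 45.3 ± 15.8 RPKM in Cd4CreTet2KO (SD, n = 4) and 11.8 ± 5.25 RPKM in Tet2fl/fl (SD, n = 3). The log2 difference of 1.84 (SE 0.41, 95% interval 0.96 to 2.73) missed the threshold (limma adjusted p = 0.0718). Of the 3 tested members 0 passed in either direction, where 0.567% of all tested genes did.

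Ly6a measured 15.9, 10.9, 5.07 and 9.23 RPKM in Cd4CreTet2KO libraries, again above all 3 controls at 2.74 to 3.73 RPKM. The log2 difference was 1.34 (SE 0.45, 95% interval 0.37 to 2.31, limma adjusted p = 0.211). In this comparison 2 of 4 members had every knockout library above every control, as did 3.85% of tested genes. Ly6e measured 109, 87.4, 72.1 and 62.6 RPKM in Cd4CreTet2KO libraries, on both sides of the controls at 81.9 to 85.7 RPKM, with a log2 difference of -0.04 (SE 0.24, 95% interval -0.56 to 0.47). The sign of that Ly6e difference turned with the scaling, to 0.16 with RPKM divided by size factors. Ly6c1 had 37, 18, 0 and 1 recovered reads in Cd4CreTet2KO libraries, against 0, 0 and 3 in Tet2fl/fl libraries.

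Which libraries enter the fit decides the Ly6c2 call in Cd4CreTet2KO mice. Ly6c2 passed with only the compared groups in the fit (adjusted p = 0.0287), with DESeq2 on recovered reads (0.000311) and without Vav1CreTet2KO replicate 1 (0.0373), Vav1CreTet2KO replicate 2 (0.0473) or Cd4CreTet2KO replicate 4 (0.0484). Over all 19 alternatives its adjusted p ran from 0.000311 to 0.431. The authors' deposited table lists, for CD8 Cd4CreTet2KO against Tet2fl/fl, a false discovery rate of 2.27e-05 for Ly6c2 (log2 fold change 2.17) and of 0.0188 for Ly6a (1.88). The authors' deposited table lists, for CD8 Vav1CreTet2KO against Tet2fl/fl, 8.40e-08 for Ly6c2 (2.78) and 0.000441 for Ly6a (2.58).

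Between the knockouts none of the tested members passed in CD8 cells. The log2 difference of Vav1CreTet2KO over Cd4CreTet2KO was 0.67 for Ly6c2 (SE 0.41, 95% interval -0.21 to 1.56), 0.69 for Ly6a (SE 0.45, 95% interval -0.27 to 1.66) and 0.21 for Ly6e (SE 0.24, 95% interval -0.30 to 0.73). The libraries of both groups overlapped for each of these genes. limma passed 0% of all tested genes here, with 649 of 10224 genes at an unadjusted p under 0.05, edgeR on recovered reads passed 0 genes and DESeq2 passed 95. Without Vav1CreTet2KO replicate 1 the limma log2 difference was 0.34 for Ly6c2 and 0.22 for Ly6a, the lowest of the fits with single libraries left out.

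A ratio within each library does not depend on how the libraries were scaled. Ly6c2 over Ly6e, both in RPKM, was 1.17, 0.359 and 0.915 in CD8 Vav1CreTet2KO libraries, 0.513, 0.553, 0.754 and 0.353 in Cd4CreTet2KO libraries, and 0.121, 0.0895 and 0.216 in Tet2fl/fl libraries. Ly6a over Ly6e was 0.0819 to 0.338 in Vav1CreTet2KO, 0.0703 to 0.147 in Cd4CreTet2KO and 0.0330 to 0.0435 in Tet2fl/fl libraries. For both ratios every knockout library lay above every control, as it did for the RPKM of both genes. In RPKM alone 6.92% of tested genes had this order for Vav1CreTet2KO and 3.85% for Cd4CreTet2KO. The share of genes with this order as ratios over Ly6e was not computed.

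**Figure D2:**
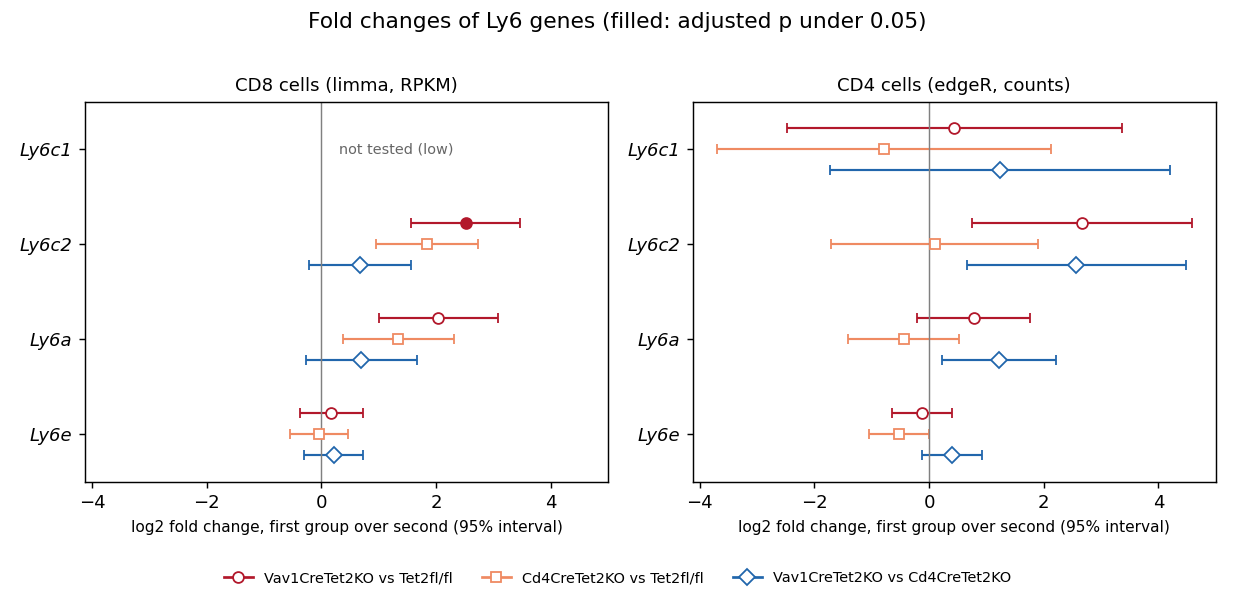
Log2 fold change (first group over second, with 95% interval) of each Ly6 gene in 3 comparisons of CD8 cells (limma on RPKM) and of CD4 cells (edgeR on counts), filled where the adjusted p is under 0.05. The single filled point is Ly6c2 in CD8 Vav1CreTet2KO against Tet2fl/fl, at 2.52.

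Conventional dendritic cell markers, summed, were higher in every CD8 Vav1CreTet2KO library than in every control. Within each CD8 knockout group the sum followed the order of Ly6a and not that of Ly6c2. Within the controls it followed the order of Ly6c2 and not that of Ly6a. Vav1CreTet2KO replicates 1 to 3, with 110.4, 39.1 and 74.5 RPKM of Ly6c2 and 31.9, 18.9 and 6.66 of Ly6a, had sums of 2731, 1575 and 1014 RPKM. Cd4CreTet2KO replicates 1 to 4, with 15.9, 10.9, 5.07 and 9.23 RPKM of Ly6a, had sums of 2936, 1233, 342 and 698 RPKM. Cd4CreTet2KO replicate 3, with 54.3 RPKM of Ly6c2, had a sum of 342 RPKM, against 407 RPKM in Tet2fl/fl replicate 3. The summed level of 11 conventional dendritic cell markers was 1014 to 2731 RPKM in Vav1CreTet2KO, 342 to 2936 RPKM in Cd4CreTet2KO and 61.7 to 407 RPKM in Tet2fl/fl libraries, with none of the 11 at 0 in a whole group. The sum of 8 plasmacytoid dendritic cell markers was 40.6 to 107 RPKM in Vav1CreTet2KO, 32.8 to 159 RPKM in Cd4CreTet2KO and 36.7 to 44.4 RPKM in Tet2fl/fl libraries. Of these 8, Cox6a2, Klk1 and Cd300c were at 0 in all control libraries, and Siglech was 14.6 to 38.6 RPKM in Vav1CreTet2KO, 6.11 to 59.3 in Cd4CreTet2KO and 0.804 to 5.64 in Tet2fl/fl libraries. Natural killer cell markers, 6 in all, summed to 41.8 to 171 RPKM in Vav1CreTet2KO, 18.8 to 91.8 in Cd4CreTet2KO and 10.3 to 28.0 in Tet2fl/fl libraries. Tyrobp alone gave 130, 55.0 and 27.9 RPKM of the Vav1CreTet2KO sums of 171, 67.4 and 41.8 RPKM. Of the 4 markers tested, 3 had a log2 difference above 0 in Vav1CreTet2KO and 2 in Cd4CreTet2KO. The sum of 7 endothelial markers, of cells that carry Ly6a and Ly6c1, was 9.40 to 14.1 RPKM in Vav1CreTet2KO, 8.07 to 24.3 in Cd4CreTet2KO and 5.33 to 6.40 in Tet2fl/fl libraries, where Lyve1 was at 0. The part of any of these in the Ly6c2 and Ly6a differences was not tested.

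Monocyte, macrophage and neutrophil RNA stood high in CD8 Cd4CreTet2KO replicates 1 and 2, which were also high in dendritic cell genes. The summed level of 15 such markers was 19.1 to 53.4 RPKM in CD8 Vav1CreTet2KO, 5.93 to 287 in Cd4CreTet2KO and 9.82 to 24.6 in Tet2fl/fl libraries, where Fcgr1 and Marco were at 0. Neutrophil markers, 7 in all, summed to 1.88 to 4.02 RPKM in Vav1CreTet2KO, 0.472 to 96.5 in Cd4CreTet2KO and 0.486 to 3.84 in Tet2fl/fl libraries. Lyz2, the lysozyme of myeloid cells, was 172 and 88.2 RPKM in Cd4CreTet2KO replicates 1 and 2 and at most 9.33 RPKM in every other CD8 library. The same 2 libraries had 37 and 18 Ly6c1 reads. Without them, an alternative chosen after seeing the data, the Cd4CreTet2KO log2 difference was 1.56 for Ly6c2 (adjusted p = 0.431) and 0.92 for Ly6a (0.733), with 54.3 and 22.1 RPKM of Ly6c2 left above the controls. The Vav1CreTet2KO difference of Ly6c2, to which those libraries add only to the estimate of spread, had an adjusted p of 0.0228 in that fit.

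**Figure D3:**
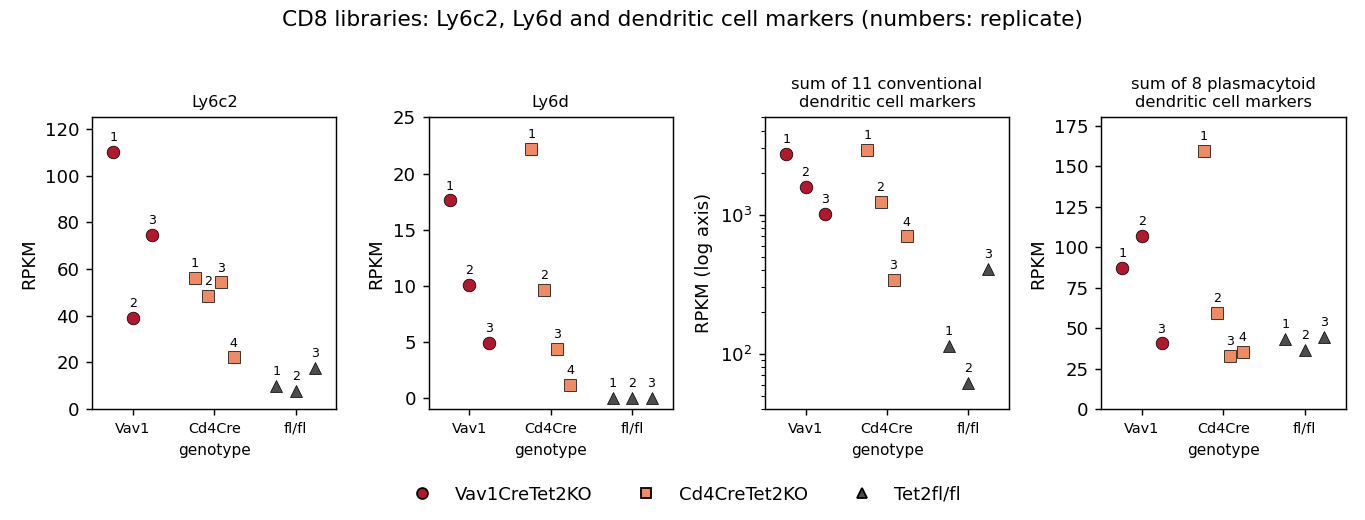
Ly6c2, Ly6d and the summed markers of conventional (log axis) and plasmacytoid dendritic cells, in RPKM, for each CD8 library of Vav1CreTet2KO, Cd4CreTet2KO and Tet2fl/fl mice, with numbers giving the replicate. Ly6d is at 0 in all 3 controls and at 1.19 to 22.2 RPKM in the knockouts, and the conventional dendritic cell sum is 342 to 2936 RPKM in the knockouts and 61.7 to 407 RPKM in the controls.

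Almost all Ly6C transcript in CD8 cells came from Ly6c2, while CD4 cells also held Ly6c1. Ly6c2 made up 99.7%, 100% and 99.9% of the reads of both Ly6c genes in CD8 Vav1CreTet2KO libraries. It made up 98.3% to 100% in CD8 Cd4CreTet2KO libraries and 99.3% to 100% in CD8 Tet2fl/fl libraries. Ly6c1 had 0 reads in 4 of 10 CD8 libraries, where a floor of 3 reads allows 0.0538 to 0.106 RPKM. In CD4 cells the Ly6c2 share was 60%, 99.4% and 71.1% in Vav1CreTet2KO, 82.6%, 48.9% and 51.7% in Cd4CreTet2KO, and 95.6%, 45.2% and 42.8% in Tet2fl/fl libraries. The shares of CD4 libraries spread within each genotype beyond their 95% Wilson intervals, which were 37.8% to 47.9% for Tet2fl/fl replicate 3 and 89.2% to 98.3% for replicate 1. CD4 Vav1CreTet2KO replicate 1 rested on 12 Ly6c2 and 8 Ly6c1 reads, with an interval of 38.7% to 78.1%. The reads carry no molecular identifiers, and these intervals and floors treat each read as independent. Even numbers prevailed among values of 1 to 20 reads in every library but CD8 Vav1CreTet2KO replicate 1. How the reads of a pair were counted is not given, so the intervals can be too narrow even for counting error.

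**Figure D4:**
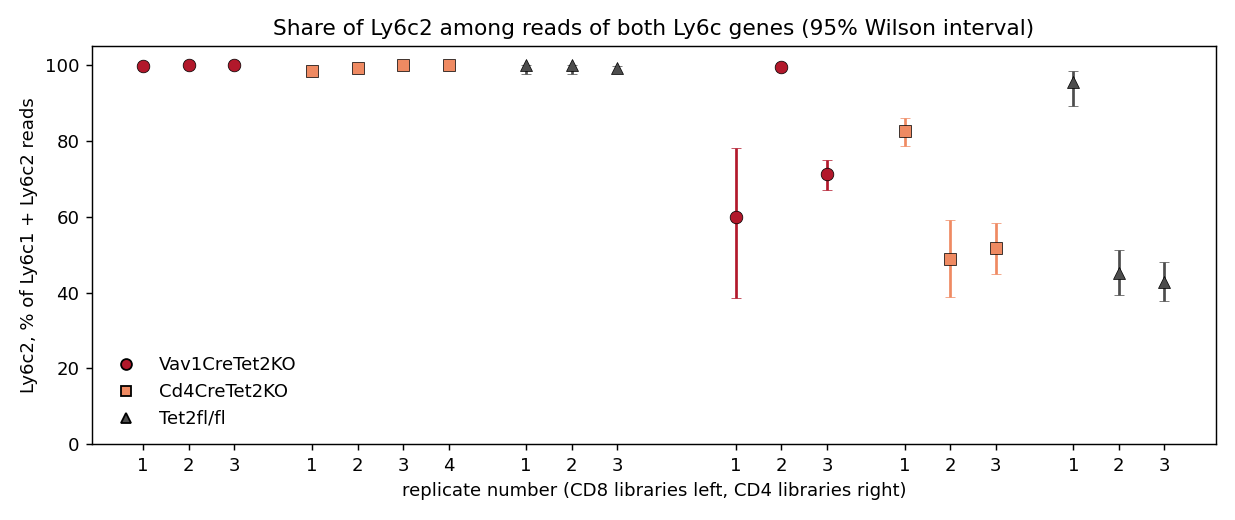
Share of Ly6c2 (percent) among the reads of Ly6c1 and Ly6c2 in each library, with 95% Wilson intervals, CD8 libraries on the left and CD4 libraries on the right, each in the order Vav1CreTet2KO, Cd4CreTet2KO, Tet2fl/fl. CD8 libraries lie at 98.3% or above and CD4 libraries spread over 42.8% to 99.4%.

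In CD4 T cells none of the 4 members passed the test, and among them Ly6c2 showed the widest difference. Ly6c2 measured 7.48, 54.7 and 20.6 RPKM in Vav1CreTet2KO libraries (12, 1344 and 345 reads), against 5.11, 3.98 and 4.59 RPKM in Tet2fl/fl libraries (87, 117 and 154 reads). Every Vav1CreTet2KO library lay above the controls, the shallow replicate 1 by the least. The edgeR log2 fold change was 2.67 (SE 0.89, 95% interval 0.75 to 4.58) with an adjusted p of 0.287. Of the 4 tested members 0 passed, where edgeR called 0.00738% of 13554 genes. Ly6c2 was the 1 member with every Vav1CreTet2KO library above every control, as were 3.19% of genes. By edgeR 1617 genes had an unadjusted p under 0.05, Ly6c2 among them, and DESeq2 called Ly6c2 (adjusted p = 0.0328) among 573 genes. With libraries left out in turn the Ly6c2 fold change ran from 1.85, without Vav1CreTet2KO replicate 2, to 3.09, without replicate 1 (edgeR adjusted p from 0.0859 to 0.629).

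The sums of conventional dendritic cell, natural killer cell and neutrophil markers were also higher in every CD4 Vav1CreTet2KO library than in the other CD4 libraries. The dendritic cell sum did not follow the order of Ly6c2, and the natural killer cell sum was mostly Tyrobp. The conventional dendritic cell sum was 753, 819 and 408 RPKM in the Vav1CreTet2KO replicates with 7.48, 54.7 and 20.6 RPKM of Ly6c2, 91.5 to 229 in Cd4CreTet2KO and 86.5 to 209 in Tet2fl/fl libraries, with Batf3 at 0 in all Cd4CreTet2KO and Tet2fl/fl libraries. The plasmacytoid dendritic cell sum was 34.8, 207 and 128 RPKM in CD4 Vav1CreTet2KO replicates 1 to 3. It was 75.0, 34.8 and 62.6 RPKM in Cd4CreTet2KO replicates 1 to 3 and 29.1 to 73.4 in Tet2fl/fl libraries, with no marker at 0 in a whole group. The natural killer cell sum was 51.7 to 158 RPKM in CD4 Vav1CreTet2KO, 7.05 to 16.8 in Cd4CreTet2KO and 2.06 to 27.3 in Tet2fl/fl libraries, with Klra4 and Klra8 at 0 throughout. Tyrobp alone gave 113.6, 156.5 and 46.2 RPKM of the sums of 113.6, 157.5 and 51.7 RPKM in Vav1CreTet2KO replicates 1 to 3. Neutrophil markers summed to 2.23 to 14.0 RPKM in CD4 Vav1CreTet2KO and 0.561 to 1.91 in Cd4CreTet2KO libraries, in both of which Retnlg was at 0, and to 0.6998 to 1.80 RPKM in Tet2fl/fl libraries. In the shallow Vav1CreTet2KO replicate 1, S100a9 gave 2.07 of the 2.23 RPKM. Monocyte and macrophage markers summed to 34.6 to 66.5 RPKM in CD4 Vav1CreTet2KO, 4.17 to 15.1 in Cd4CreTet2KO and 1.71 to 59.5 in Tet2fl/fl libraries, with Clec4f and Vsig4 at 0 in the last 2 groups and Marco in the controls. Vav1CreTet2KO replicate 2, with 54.7 RPKM of Ly6c2, also had 64.0 RPKM of Ly6d, 67.1 RPKM of Klk1 and 56.1 RPKM of Cox6a2, the highest of the CD4 libraries for each. Their part in the Ly6c2 values was not tested.

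The other members overlapped between CD4 Vav1CreTet2KO and control libraries. Ly6a measured 38.6, 33.4 and 19.5 RPKM in Vav1CreTet2KO libraries, against 25.6, 12.4 and 19.4 RPKM in Tet2fl/fl libraries, a log2 fold change of 0.77 (SE 0.46, 95% interval -0.21 to 1.76). Ly6e measured 107, 128 and 96.1 RPKM in Vav1CreTet2KO libraries, against 125.5, 141 and 122.2 RPKM in Tet2fl/fl libraries, a log2 fold change of -0.13 (SE 0.24, 95% interval -0.64 to 0.39). Ly6c1 measured 2.58, 0.169 and 4.33 RPKM in Vav1CreTet2KO libraries, against 0.1215, 2.499 and 3.18 RPKM in Tet2fl/fl libraries. Its log2 fold change of 0.44 had an interval of -2.49 to 3.37, and its sign turned when Vav1CreTet2KO replicate 3 or Tet2fl/fl replicate 1 was left out.

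In CD4 cells of Cd4CreTet2KO mice 0 of 4 members passed the test, where edgeR called 0.0295% of all genes and left 339 at an unadjusted p under 0.05. Ly6c2 measured 10.2, 1.10 and 3.11 RPKM in Cd4CreTet2KO libraries, against 5.11, 3.98 and 4.59 RPKM in Tet2fl/fl libraries, on both sides of the controls. Its edgeR log2 fold change was 0.10 (SE 0.84, 95% interval -1.71 to 1.90), with a sign that turned to -0.27 under limma on RPKM and to -0.95 without Cd4CreTet2KO replicate 1. Ly6e measured 119, 62.3 and 75.2 RPKM in Cd4CreTet2KO libraries, all below the Tet2fl/fl libraries at 125.5, 141 and 122.2 RPKM. Its log2 fold change was -0.52 (SE 0.24, 95% interval -1.04 to -0.01, edgeR adjusted p = 1.00), and 7.93% of tested genes had the same complete order. Ly6a measured 14.9, 9.87 and 14.8 RPKM in Cd4CreTet2KO libraries, against 25.6, 12.4 and 19.4 RPKM in controls, a log2 fold change of -0.45 (SE 0.45). Ly6c1 measured 1.11, 0.597 and 1.503 RPKM in Cd4CreTet2KO libraries, inside the control range of 0.1215 to 3.18 RPKM.

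Set against each other, the knockouts differed most in Ly6c2 in CD4 cells, and again no member passed. The log2 fold change of Vav1CreTet2KO over Cd4CreTet2KO was 2.57 for Ly6c2 (SE 0.89, edgeR adjusted p = 0.323; 1.75 without Vav1CreTet2KO replicate 2 and 3.62 without Cd4CreTet2KO replicate 1) and 1.22 for Ly6a (SE 0.46, adjusted p = 0.370). Ly6a was at 19.5 RPKM or more in every Vav1CreTet2KO library and at 14.9 or less in every Cd4CreTet2KO library, a complete order that 4.14% of tested genes shared. For Ly6c2 the shallow Vav1CreTet2KO replicate 1 (7.48 RPKM) lay under Cd4CreTet2KO replicate 1 (10.2 RPKM). Ly6c1 (log2 fold change 1.23, SE 1.38) and Ly6e (0.40, SE 0.24) overlapped. edgeR called 0.0664% of all genes, and DESeq2 called Ly6c2 here too (adjusted p = 0.0397).

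Whether the knockout differences of Ly6a and Ly6c2 differed between CD8 and CD4 cells was tested on RPKM, and none of these values passed. For Cd4CreTet2KO the CD8 difference exceeded the CD4 difference by 2.12 for Ly6c2 (SE 0.84, 95% interval 0.37 to 3.86, adjusted p = 0.763) and by 1.81 for Ly6a (SE 0.62, 95% interval 0.52 to 3.11, adjusted p = 0.651). For Vav1CreTet2KO it was 0.55 for Ly6c2 (SE 0.86, 95% interval -1.26 to 2.35), turning to -0.13 without CD4 Vav1CreTet2KO replicate 1, and 1.39 for Ly6a (SE 0.64, 95% interval 0.05 to 2.72, adjusted p = 0.524). Each value is from limma on log2(RPKM + 1) of all 19 libraries and 11121 genes. limma called 0% of genes for Vav1CreTet2KO, with 1024 genes at an unadjusted p under 0.05, and 0.0629% for Cd4CreTet2KO. The Ly6e values were 0.41 (SE 0.37) for Vav1CreTet2KO and 0.60 (SE 0.36) for Cd4CreTet2KO, and Ly6c1 gave -0.10 (SE 0.68) and 0.50 (SE 0.65).

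Library names showed that 8 mice gave both a CD8 and a CD4 library, which sets the cell types side by side, although the authors normalized the tables separately and no level was tested between them. Ly6c2 was higher in the CD8 library of 7 of the 8 mice. In the 3 Vav1CreTet2KO mice the CD8 level was 14.8, 0.714 and 3.62 times the CD4 level, the exception being the mouse with 39.1 RPKM in CD8 and 54.7 RPKM in CD4 cells. The value of 14.8 rests on CD8 Vav1CreTet2KO replicate 1, which stood apart, and on 12 Ly6c2 reads in the shallow CD4 replicate 1. In the 2 Cd4CreTet2KO mice the CD8 level was 5.34 and 7.12 times the CD4 level, and in the 3 Tet2fl/fl mice 1.93 to 3.86 times. Ly6a, Ly6e and Ly6c1 were lower in the CD8 library of all 8 mice. The share of all genes with such an order over the mice was not computed. The CD8 level of Ly6a was 0.342 to 0.827 times that of CD4 in Vav1CreTet2KO, 0.341 and 0.6246 times in Cd4CreTet2KO and 0.107 to 0.301 times in Tet2fl/fl mice. The Ly6a value of 0.827 came from the mouse with the Ly6c2 value of 14.8.

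**Figure D5:**
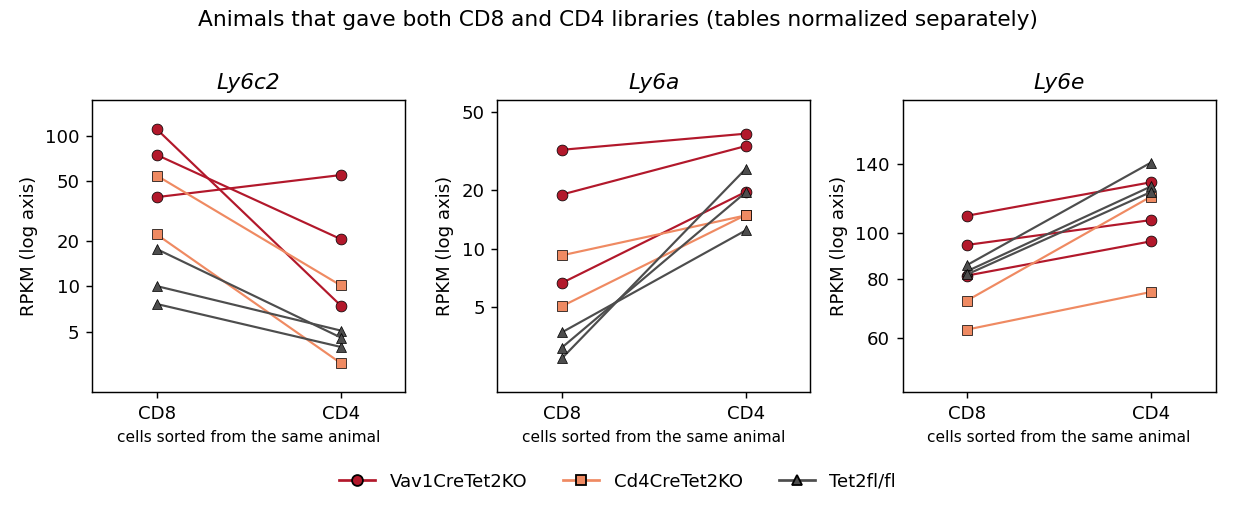
RPKM (log axis) of Ly6c2, Ly6a and Ly6e in the CD8 and CD4 libraries of the 8 mice that gave both, joined by lines and coloured by genotype. Ly6c2 is higher in CD8 in 7 mice and higher in CD4 in 1 Vav1CreTet2KO mouse, while Ly6a and Ly6e are higher in CD4 in all 8.

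Over the 6 groups of genotype and cell type each member had its own order of mean levels, again across separately normalized tables. Ly6c2 ran from CD8 Vav1CreTet2KO (74.7 RPKM) through CD8 Cd4CreTet2KO (45.3), CD4 Vav1CreTet2KO (27.6), CD8 Tet2fl/fl (11.8) and CD4 Cd4CreTet2KO (4.80) to CD4 Tet2fl/fl (4.56), and each pair of neighbours overlapped. Ly6a ran from CD4 Vav1CreTet2KO (30.5 RPKM) through CD8 Vav1CreTet2KO (19.2), CD4 Tet2fl/fl (19.1), CD4 Cd4CreTet2KO (13.2) and CD8 Cd4CreTet2KO (10.3) to CD8 Tet2fl/fl (3.20). For Ly6a only the last neighbours did not overlap, at 5.07 RPKM and above in CD8 Cd4CreTet2KO and 3.73 RPKM and below in CD8 Tet2fl/fl. Ly6e spanned 82.9 RPKM (CD8 Cd4CreTet2KO) to 130 RPKM (CD4 Tet2fl/fl) with every neighbour overlapping. Ly6c1 averaged 2.36 RPKM in CD4 Vav1CreTet2KO, 1.07 in CD4 Cd4CreTet2KO and 1.93 in CD4 Tet2fl/fl. Its lowest CD4 Cd4CreTet2KO library (0.597 RPKM) lay above the highest of CD8 Cd4CreTet2KO (0.496 RPKM), its next neighbour.

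Among 36 other genes of the Ly6 and uPAR family in the tables, few were abundant. Of these, 13 were at 0 in all 19 libraries, among them Ly6g, the granulocyte antigen, and Psca. Only 5 reached 1 RPKM in 3 or more libraries, namely Ly6d, Plaur, Ly6g5b, Lynx1 and Lypd6b. Ly6d, a surface antigen of early B cells and plasmacytoid dendritic cells, was 17.6, 10.1 and 4.93 RPKM in CD8 Vav1CreTet2KO libraries, 22.2, 9.63, 4.37 and 1.19 RPKM in Cd4CreTet2KO libraries, and listed at 0 in all 3 Tet2fl/fl libraries. It passed the filter on low values only through the knockout libraries, so its limma adjusted p (0.0288 in Vav1CreTet2KO, or 0.0990 without replicate 1, and 0.0718 in Cd4CreTet2KO) is given as a description. The other 3 family genes tested in CD8 cells did not pass.

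Plaur, the urokinase receptor of migrating and myeloid cells, measured 13.3, 9.63 and 2.88 RPKM in CD8 Vav1CreTet2KO libraries and 14.5, 4.42, 3.83 and 3.10 RPKM in Cd4CreTet2KO libraries, against 0.618, 1.63 and 0.496 RPKM in Tet2fl/fl libraries. Its log2 difference was 2.18 in Vav1CreTet2KO (limma adjusted p = 0.0682, or a difference of 1.79 with 0.171 without replicate 1) and 1.78 in Cd4CreTet2KO (0.143). Among the controls replicate 2 alone reached 1 RPKM, so Plaur passed the filter through the knockout libraries. Its adjusted p is therefore given as a description. Ly6g5b and Lypd6b had log2 differences of -0.59 and 0.19 in CD8 Vav1CreTet2KO cells and of -0.50 and 0.29 in Cd4CreTet2KO cells, none passing. Lynx1, which binds acetylcholine receptors of neurons, reached at most 1.95 RPKM and was not tested in CD8 cells. In CD4 cells 0 of 8 tested family genes passed in each comparison with controls.

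Since interferons raise Ly6 transcription, the response genes were counted beside the members. Of 34 interferon response genes 31 were tested in CD8 cells and 0 passed in Vav1CreTet2KO, where 1.46% of all tested genes passed. Of the 31, 29 had a log2 difference above 0, with a median of 0.83 against -0.11 over all tested genes. The smallest p belonged to the antiviral genes Mx1 (log2 1.60, limma adjusted p = 0.0539) and Bst2 (2.44, 0.0637). Bst2, a tether of viral particles that plasmacytoid dendritic cells also carry, was 126, 27.6 and 21.8 RPKM in Vav1CreTet2KO, against 5.37, 6.43 and 9.85 RPKM in Tet2fl/fl libraries. Without Vav1CreTet2KO replicate 1 the log2 differences were 1.67 for Bst2 (adjusted p = 0.121) and 1.45 for Mx1 (0.124). In CD8 Cd4CreTet2KO 0 of 31 passed, where 0.567% of all tested genes did. Of the 31, 25 were above 0, with a median of 0.55 against -0.15. Isg20 (log2 -1.27, limma adjusted p = 0.118) and Mx1 (1.13, 0.166) came nearest. In CD4 cells 0 of 33 passed in either knockout, where edgeR called 0.00738% of all genes for Vav1CreTet2KO and 0.0295% for Cd4CreTet2KO. Of the 33, 19 were above 0 in Vav1CreTet2KO (median 0.05) and 14 in Cd4CreTet2KO (median -0.06). Ifi27l2a (log2 1.70, edgeR adjusted p = 0.246) and Bst2 (1.91, 0.368) came nearest in Vav1CreTet2KO. Of 24 targets of interferon gamma 0 passed in CD8 cells, with medians of 0.19 in Vav1CreTet2KO (15 above 0) and -0.16 in Cd4CreTet2KO (9 above 0). Ciita, the master switch of MHC class II genes, had the smallest p in both (log2 1.89 in Vav1CreTet2KO with adjusted p = 0.140, and 1.91 in Cd4CreTet2KO with 0.156). Tgtp1 came next in Vav1CreTet2KO (0.93, 0.187) and Gbp8 in Cd4CreTet2KO (-0.75, 0.261). In CD4 cells 0 of 23 such targets passed, with medians of -0.58 in Vav1CreTet2KO (6 above 0) and -0.29 in Cd4CreTet2KO (3 above 0). Gbp7 (log2 -1.38, edgeR adjusted p = 0.223) and Tap1 (-0.91, 0.246) came nearest in Vav1CreTet2KO. Of 7 receptor chains and kinases of interferon signalling 0 passed in CD8 or CD4 cells, with Ifngr1 (log2 0.79, adjusted p = 0.132) and Ifnar2 (0.88, 0.190) nearest in CD8 Vav1CreTet2KO and Ifngr2 (1.37, 0.0863) and Ifnar2 (0.76, 0.325) in CD8 Cd4CreTet2KO.

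Genes of memory and homing, the state that Ly6C marks in CD8 T cells, held 3 that passed beside Ly6c2. Of 20 such genes 3 rose and 0 fell in CD8 Vav1CreTet2KO, where 0.45% of all tested genes were called higher, with a median log2 difference of 0.59 against -0.11 over all tested genes. Of the 20, 14 had a log2 difference above 0. The list was chosen with earlier results of these data known, so its share of calls is a description and no test of enrichment. In the same comparison 5 of 11 conventional dendritic cell markers rose, with all 11 above 0 and a median of 2.72. Of 8 plasmacytoid dendritic cell markers 1 rose, as did 1 of 4 tested natural killer cell markers, and 1 of 4 tested tumour epithelium markers fell. These counts are descriptions too, since Cox6a2, Klk1 and Cd300c passed the filter only through knockout libraries. Il7r, the interleukin receptor chain that memory cells need to survive, was 65.8 ± 21.6 RPKM in Vav1CreTet2KO and 22.2 ± 5.99 RPKM in Tet2fl/fl (SD, n = 3 each; log2 1.51, limma adjusted p = 0.0314). Klf3, a transcriptional repressor, measured 13.6, 6.79 and 16.2 RPKM in Vav1CreTet2KO libraries, against 1.77, 4.22 and 2.17 RPKM in Tet2fl/fl libraries (log2 1.80, adjusted p = 0.0317). Ccr2, a chemokine receptor of memory T cells and monocytes, rose by 2.38 on the log2 scale (limma adjusted p = 0.0396), with 14.4 ± 4.16 RPKM in Vav1CreTet2KO and 1.89 ± 0.124 RPKM in Tet2fl/fl. Without Vav1CreTet2KO replicate 1, an alternative chosen for these genes after seeing the data, Il7r passed (log2 1.73, adjusted p = 0.0282) while Klf3 (1.69, 0.0967) and Ccr2 (2.29, 0.102) did not. In CD8 Cd4CreTet2KO 1 of 20 rose, Klf3 (log2 1.92, adjusted p = 0.0343), and 0 fell, where 8 of 10224 tested genes were called higher. In CD4 cells, where 1 gene of all passed in Vav1CreTet2KO and 4 in Cd4CreTet2KO, 0 of 20 passed in either knockout, with Ccr2 (log2 1.52, edgeR adjusted p = 0.111) nearest in Vav1CreTet2KO.

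The members followed each other only in part. Over the 10 CD8 libraries Pearson's r of log2(RPKM + 1) was 0.74 between Ly6c2 and Ly6a, 0.52 between Ly6a and Ly6e and 0.27 between Ly6c2 and Ly6e. Over the 9 CD4 libraries it was 0.63 between Ly6c2 and Ly6a, 0.48 between Ly6c2 and Ly6e and -0.07 between Ly6c1 and Ly6c2. These values are descriptions, since the libraries also differ in genotype, depth and dendritic cell RNA. By the same measure over CD8 libraries, Ly6c2 was most like Mpnd (0.97), Ccnb1ip1 (0.96), Cdk2ap2 (0.93), Phf21a (0.93) and Samhd1 (0.91). Ly6a was most like Ctsl, Grm8, Notch4, Samd9l and Cpq (0.96 to 0.97), and Ly6e like Slc15a4, Kctd20, Atp6v0d1, Sec22a and Zfp994 (0.90 to 0.92).

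Over CD4 libraries the lists were other genes. Ly6c2 was most like Cybb (0.97), the oxidase subunit of phagocytes, then Apbb1ip, Selenop, Ahnak and Gabarap (0.95 each). Ly6a was most like Pqbp1, Skp1, Tor1aip1, Impdh2 and Ifitm2 (0.95 to 0.97). Ly6e was most like Dstn, Tpr, Eif3e, Chchd3 and Eif3h (0.89 to 0.92), and Ly6c1 like Ppp1r13b, Bach2, Eif2b5, Trbc2 and Serpinb9 (0.84 to 0.91).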

How the data were processed

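RNA of T cells sorted on CD45, CD3ε, CD4 and CD8α, per the labels' protocols, was made into stranded total RNA libraries with the Takara Pico kit and read as 150-base pairs. The authors deposited 1 table per cell type. The CD4 table holds counts per gene and RPKM, and the CD8 table RPKM only, per the file headers. The authors also deposited a log2 fold change and a false discovery rate per gene (kept under another unit because some cells hold no number). The submitters' processing notes name the builds GRCm38 and mm10. Neither aligner nor counter is given in the sources used here. The tables' starts of the 4 genes differ from those of the GRCm38 annotation by 128151 bases, so table coordinates were printed. Of the per-sample columns 28 were read and 18 not used.

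For the CD4 counts edgeR 4.0.16 (R 4.3.3) gave the tests (filterByExpr with a minimum count of 10 and total of 15, TMM, robust quasi-likelihood fit of 9 libraries). CD8 RPKM, where counts had been hoped for, was tested with limma 3.58.1 (trend) on log2(RPKM + 1), with a pseudocount of 1, over genes of at least 1 RPKM in 3 of 10 libraries, which understates the change of low genes. Interactions used limma on all 19 libraries. Benjamini-Hochberg adjustment ran over all tested genes at 0.05. Whole reads recovered from CD8 RPKM and the lengths implied by CD4 counts and RPKM (100% of 134905 values within 0.01 of a whole number, 20159 genes with a length) entered edgeR and DESeq2 1.42.0 as alternatives. Each fit was tested on simulated data. Alternatives were another pseudocount or scaling, no filter, other tools, fewer groups, blocks and leaving out each library. No batch is given in the labels. Replicate numbers did not pair mice (correlations of deviations from -0.08 to 0.10), whereas library numbers tied CD8 to CD4 libraries of 8 mice (-0.06 to 0.33). Sequences came from the GENCODE transcripts and the RefSeq promoter table, aligned with Biopython 1.88; a second motif search is not reported here. The text names the members in every comparison, listed genes past the threshold (up to 4 by smallest p, else the 2 smallest), family genes at 1 RPKM in 3 libraries, the 5 genes most like each member (unnamed models and pseudogenes left out) and marker genes. The members and lists were chosen with earlier results of these data known.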

Additional observations from a re-analysis of the deposited data

How the results depend on the processing

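Of the values recomputed, 218 of main results and 494 others kept their direction, side of the threshold or size, 17 reversed, 99 counts moved, and 14 values gained and 4 lost a call; the cause was not tested. In CD8 Vav1CreTet2KO against Tet2fl/fl 149 genes passed. The count was 87 with a pseudocount of 0.1, 20 with no filter, 91 with edgeR on recovered reads, 931 with DESeq2 on them, 90 with only the compared groups and 0 to 234 with single libraries left out. Members called went from 1 to 0 with no filter, where Ly6c2 kept a log2 difference of 2.52 (adjusted p = 0.0822), and to 2 with size factors, edgeR or DESeq2 (Ly6c2 and Ly6a), and ran from 0 to 2 with single libraries left out. The Ly6c2 difference then ran from 2.18 to 2.92.

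In CD8 Cd4CreTet2KO against Tet2fl/fl 58 genes passed, 8 higher and 50 lower. Size factors gave 22 higher and 50 lower and moved the median of all genes from -0.15 to 0.00, edgeR gave 36 higher and 28 lower. The count was 13 with a pseudocount of 0.1, 8 with no filter, 606 with DESeq2, 268 with only the compared groups, 0 without both libraries high in Lyz2 and 0 to 153 with single libraries left out. Members called went from 0 to 2 with DESeq2, 1 with only the compared groups and 0 to 1 with single libraries left out. Ly6e turned from -0.04 to 0.16 with size factors, 0.20 with edgeR and 0.18 with DESeq2, and ran from -0.18 to 0.080 with single libraries left out. Between the CD8 knockouts 0 genes passed, against 95 with DESeq2, 2 with only these groups and 0 to 1 with single libraries left out.

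In CD4 cells 1 gene passed for Vav1CreTet2KO, against 573 with DESeq2 (1 member), 2 with limma, 383 with no filter, 2 with only the compared groups and 0 to 819 with single libraries left out, where Ly6c1 ran from -0.53 to 1.03. For Cd4CreTet2KO 4 passed, against 42 with DESeq2, 2 with limma, 37 with no filter, 8 with only the compared groups and 0 to 4 with single libraries left out. Ly6c2 turned there from 0.10 to -0.27 with limma and to -0.24 with Ly6c1 and Ly6c2 added together, and ran from -0.95 to 0.58 with single libraries left out. Between the CD4 knockouts 9 passed, against 517 with DESeq2 (1 member), 4 with limma, 403 with no filter, 3 with only these groups and 2 to 719 with single libraries left out.

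For the Vav1CreTet2KO difference in CD8 minus that in CD4 0 genes passed, against 1 with a pseudocount of 0.1, 4 with no filter, 9 with the animal as a block and 0 to 155 with single libraries left out. Ly6c1 turned from -0.10 to 0.062 with the pseudocount and ran from -0.73 to 0.49 with single libraries left out, and Ly6c2 from -0.13 to 1.23. For Cd4CreTet2KO 7 passed, against 2 with the pseudocount and 0 to 9 with single libraries left out.

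With the replicate number as a block, although the numbers do not pair the mice, 90 genes and 2 members passed in CD8 Vav1CreTet2KO (Ly6c2 2.52, adjusted p = 0.0141; Ly6a adjusted p = 0.0453). The block gave 0 genes in CD8 Cd4CreTet2KO (Ly6c2 2.15, Ly6e 0.080), 3 in CD4 Vav1CreTet2KO (Ly6c2 2.72), a Ly6c2 value of -0.012 in CD4 Cd4CreTet2KO and 3 genes for the Cd4CreTet2KO difference between cell types. The shallow CD4 Vav1CreTet2KO replicate 1, with 12 Ly6c2 reads, limits the CD4 values.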
